A study of Homo sapiens with 4 samples.

Results

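The genes described here make, store, take up and break down catecholamines, the family of transmitters that includes dopamine, noradrenaline and adrenaline. They were measured in human BE(2)C cells, a clonal neuroblastoma line with MYCN amplification, carrying an added MYCN open reading frame (BE(2)C:MYCN-ORF). Members were the 9 table rows with the symbols TH, DDC, DBH, GCH1, SLC18A1, SLC18A2, SLC6A2, MAOA and CYB561, out of 19826 gene rows. All 9 were found, and 8 passed the filter on low values described below, MAOA being the exception. The cells received either a control siRNA (siCon) or an siRNA against MYCN (siMYCN), together with either a control miRNA mimic (miRCon) or a let-7a mimic, and polyA RNA was sequenced 48 hours after transfection. Each of the 4 combinations is 1 library, so no group has a replicate. All 4 carry the added reading frame, and no untransfected cells were analysed here. By its title, the series is about mechanisms that disrupt the let-7 miRNA family in neuroblastoma.

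Catecholamines are made from tyrosine in a chain of steps. Tyrosine hydroxylase (TH) makes L-DOPA in the rate-limiting step, aromatic L-amino acid decarboxylase (DDC) turns it into dopamine, and dopamine beta-hydroxylase (DBH), inside secretory vesicles, turns dopamine into noradrenaline. TH needs the cofactor tetrahydrobiopterin, whose synthesis starts with GTP cyclohydrolase (GCH1), and DBH needs ascorbate that cytochrome b561 (CYB561) keeps reduced inside the vesicle. The vesicular monoamine transporters VMAT1 (SLC18A1) and VMAT2 (SLC18A2) load the vesicles, the noradrenaline transporter (SLC6A2) brings released noradrenaline back into the cell, and monoamine oxidase A (MAOA) breaks it down. Neuroblastoma arises from the sympathoadrenal lineage, and most such tumours release catecholamine breakdown products. SLC6A2 carries the tracer MIBG into neuroblastoma cells.

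Levels are called TPM-like values here, taken to be scaled for transcript length and library size. No label states their unit, so comparisons of levels between genes assume the scaling for length. The values summed to between 855811 and 862049 per library, and the number of reads behind them is unknown. MYCN itself was at 1449 and 1433 with siCon and at 1238 and 1197 with siMYCN, a small difference, and reads of the added reading frame and of the cells' own gene were not separated. The 5 noradrenergic neuroblastoma markers reported here (HAND2, GATA3, CHGA, CHGB and NCAM1) were all present, the lowest value being 37.2 for NCAM1. Cholinergic cells were represented by their vesicular transporter SLC18A3 alone, since CHAT and SLC5A7 were at or near 0. Schwann cell markers summed to 8.18 and 10.3 with siCon and to 16.2 and 15.2 with siMYCN, with SOX10 at 2.11 or less, and their part in the siMYCN results below was not tested. Mesenchymal-like markers, of which VIM and TWIST1 passed the filter, summed to 421 and 432 with siCon and to 549 and 445 with siMYCN. Of 7 fibroblast markers 6 passed the filter, with sums between 383 and 444, and transcripts of the mitochondrial genome made up 31.6% and 32.1% of the summed values with siCon and 28.4% and 29.3% with siMYCN, a difference whose part in the results was also not tested. Adrenal cortex markers summed to 3.46 or less, epithelial markers to 10.8 or less and blood markers to 3.31 or less.

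DBH was the most abundant member and MAOA the least. The means over the 4 libraries were 406 for DBH, 190 for SLC6A2, 123 for CYB561, 24.8 for GCH1, 19.7 for SLC18A1, 10.7 for DDC, 8.70 for TH, 6.35 for SLC18A2 and 0.690 for MAOA. DBH, SLC6A2 and CYB561 stood apart from the rest, their lowest library (104, for CYB561) lying above the highest of any other member (28.7, for GCH1). The ranges of GCH1 and SLC18A1 overlapped, as did those of TH with DDC and with SLC18A2, so the order within these neighbours is not larger than their spread over the libraries. Only 182 of the 13942 genes above 0 in every library had a higher mean than DBH. TH, in contrast, had a mean higher than 42.0% of these genes. If the values are scaled for length, DBH transcripts outnumbered those of TH by ratios of 69.0 and 73.4 with siCon and of 29.9 and 36.3 with siMYCN.

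**Figure D1:**
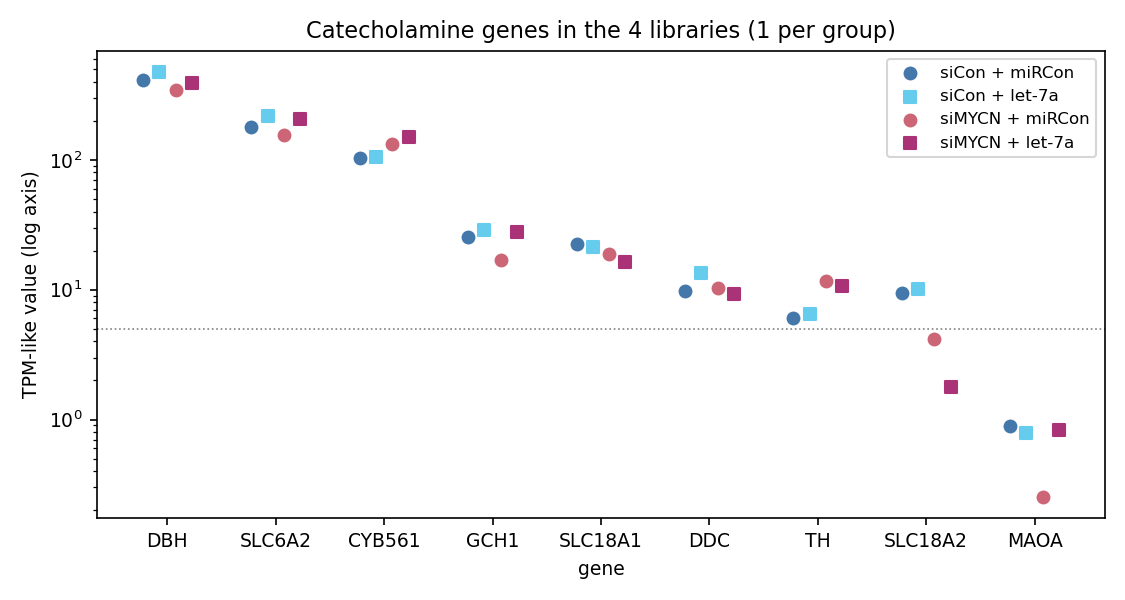
TPM-like values (log axis) of the 9 catecholamine genes, ordered by mean, in the 4 libraries, 1 point per library; circles are miRCon, squares let-7a, blue siCon and red or purple siMYCN, and the dotted line marks the mean of 5 needed for a test. DBH, SLC6A2 and CYB561 lie at 104 or more in every library, while SLC18A2 ranges from 10.0 down to 1.80.

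Between siMYCN and siCon, the members differed in opposite directions. TH and CYB561 were higher in both siMYCN libraries than in both siCon libraries, and SLC18A2, DBH and SLC18A1 were lower. Each siMYCN effect was seen once with the control mimic and once with let-7a, and these pairs share no library. The test was limma with siRNA and mimic as additive terms, on log2(value + 1), a scale that understates changes of low genes. Its error for a gene combines the disagreement between that gene's pairs (1 degree of freedom) with a spread estimated from other genes (4.3 degrees of freedom). With Benjamini-Hochberg adjustment over 9324 genes, limma called 0 members higher and 0 lower at an adjusted p under 0.05, where 2.07% of all tested genes were called higher and 1.36% lower. At an unadjusted p under 0.05, 2 members were higher (17.0% of all genes) and 2 were lower (9.40%). Values are therefore described here as higher or lower in these libraries, not as changes that passed a test.

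TH, the rate-limiting enzyme, was at 6.01 and 6.47 with siCon and at 11.6 and 10.7 with siMYCN, the second value of each being the library with let-7a. Both siMYCN libraries were above both siCon libraries, with no overlap, and the mimic made little difference. The log2 fold changes with siMYCN were 0.84 under miRCon and 0.65 under let-7a. Over both pairs the value was 0.75 ± 0.19 (SE, n = 4 libraries), and limma gave an adjusted p of 0.0831. The TH gene occupies 2163929 to 2171877 of chromosome 11 (GRCh38, minus strand).

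DDC, which makes dopamine from L-DOPA, was at 9.83 and 13.3 with siCon (without and with let-7a) and at 10.3 and 9.20 with siMYCN. The high library was siCon with let-7a, and the siRNA groups overlapped. Its siMYCN effect was 0.064 under miRCon and -0.49 under let-7a, or -0.21 ± 0.20 (SE) over both pairs (limma adjusted p = 0.546, n = 4 libraries). The DDC gene (chromosome 7, 50458436 to 50565457, minus strand) shares 84100 bases with FIGNL1 on the same strand and 11705 with DDC-AS1 on the other. FIGNL1 was at 2.93 and 2.96 with siCon and at 4.66 and 3.54 with siMYCN. The part of its reads in the DDC values was not tested.

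DBH, the enzyme that makes noradrenaline, was at 415 and 475 with siCon and at 346 and 390 with siMYCN, in each case without and then with let-7a. Within each mimic the siMYCN library was the lower, and both siMYCN values lay below both siCon values. The 2 pairs were closer together for DBH than for any other tested member, at -0.26 and -0.28, with -0.27 ± 0.057 (SE) over both pairs (limma adjusted p = 0.0634, n = 4 libraries). As percentages these are -16.6% and -18.0%, a small difference in an abundant transcript. DBH lies on chromosome 9 from 133635348 to 133659344, on the plus strand, and DBH-AS1 overlaps it on the other strand by 2728 bases.

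GCH1, the first enzyme of tetrahydrobiopterin synthesis, was at 25.6 and 28.7 with siCon and at 17.0 and 28.0 with siMYCN, without and with let-7a. A single library, siMYCN with miRCon, was low, and the siRNA groups overlapped. The siMYCN effects were -0.57 under miRCon and -0.035 under let-7a (-0.30 ± 0.17 over both pairs, SE, n = 4 libraries, limma adjusted p = 0.312). GCH1 lies on chromosome 14 from 54842008 to 54902852, on the minus strand.

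CYB561, the electron carrier of the vesicle membrane, was at 104 and 105 with siCon and at 131 and 151 with siMYCN, without and with let-7a. Both siMYCN libraries lay above both siCon libraries, which were almost level. The effects were 0.33 and 0.51, or 0.42 ± 0.084 (SE) over both pairs, with a limma adjusted p of 0.0602 (n = 4 libraries). CYB561 lies on chromosome 17 from 63432304 to 63446378, on the minus strand.

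SLC18A2, the vesicular transporter VMAT2, had the largest siMYCN difference of the 8 tested members. It was at 9.44 and, with let-7a, 10.0 in siCon cells, against 4.13 and, with let-7a, 1.80 in siMYCN cells. Both siMYCN libraries were below both siCon libraries, and the library with both treatments was the lowest. These are differences of -56.2% under miRCon and -82.1% under let-7a, and log2 fold changes of -1.02 and -1.98. Over both pairs limma gave -1.5 ± 0.30 (SE, n = 4 libraries), a 95% interval from -2.26 to -0.75 and an adjusted p of 0.0605. The SLC18A2 gene (chromosome 10, 117241073 to 117279430, plus strand) overlaps PDZD8 on the opposite strand by 2157 bases. PDZD8 was itself at 35.2 and 37.5 with siCon and at 29.2 and 30.7 with siMYCN, a log2 fold change of -0.27. It too was lower in both siMYCN libraries. The labels name no stranded library step, and the part of PDZD8 reads in the SLC18A2 values was not tested.

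SLC18A1, the related transporter VMAT1, was at 22.3 and 21.3 with siCon and at 18.8 and 16.4 with siMYCN, without and with let-7a. It too was lower in both siMYCN libraries, by less than SLC18A2, with effects of -0.24 and -0.36 (-0.30 ± 0.13 over both pairs, SE, n = 4 libraries, limma adjusted p = 0.225). Together the transporters summed to 31.8 and 31.3 with siCon and to 22.9 and 18.2 with siMYCN. SLC18A1 made up 70.3% and 68.0% of that sum with siCon, against 82.0% and, with let-7a added, 90.1% with siMYCN. The balance between the paralogs thus differed between the siRNA groups without overlap. Reads that fit both paralogs could have been divided between them, which gene-level values cannot show.

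**Figure D2:**
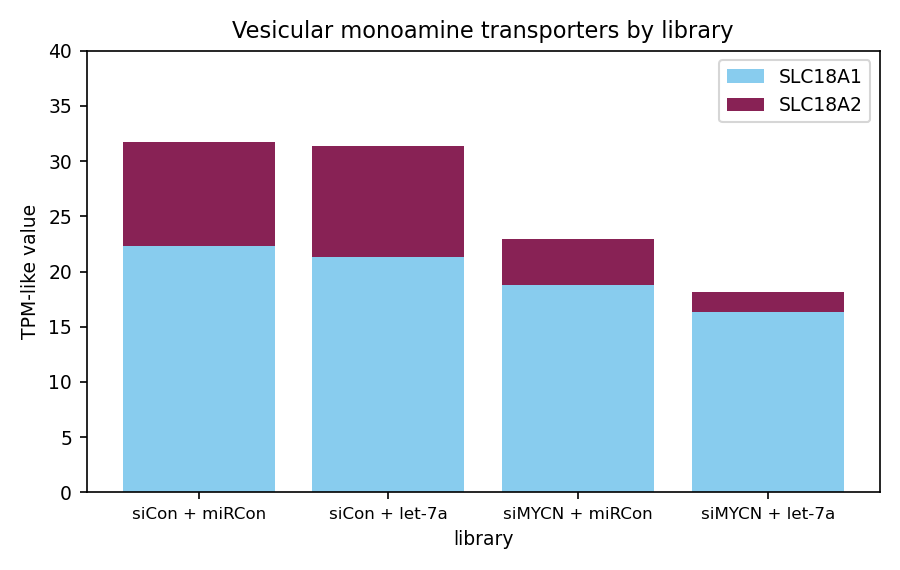
Stacked bars of the TPM-like values of SLC18A1 (light blue) and SLC18A2 (purple) in each of the 4 libraries, with no error bars because each group is 1 library. The SLC18A2 part is 9.44 and 10.0 with siCon and 4.13 and 1.80 with siMYCN, while SLC18A1 goes from 22.3 and 21.3 to 18.8 and 16.4.

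SLC6A2, the noradrenaline transporter of the plasma membrane, was at 179 and 216 with siCon and at 156 and 207 with siMYCN, without and with let-7a. The libraries were ordered by mimic more than by siRNA, and the siRNA groups overlapped. Its siMYCN effects were -0.20 and -0.061, or -0.13 ± 0.073 (SE) over both pairs (limma adjusted p = 0.319, n = 4 libraries). SLC6A2 lies on chromosome 16 from 55655604 to 55706192, on the plus strand. MAOA, the breakdown enzyme (chromosome X, 43654907 to 43746824, plus strand), was at 0.888 and 0.782 with siCon and at 0.255 and 0.834 with siMYCN. Only the library with siMYCN and miRCon was apart from the others, all were below 1, and MAOA was not tested.

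In total, 2 of the 8 tested members were higher in both siMYCN libraries than in both siCon libraries, where 35.6% of all tested genes were, and 3 were lower (SLC18A2, DBH and SLC18A1), where 21.1% of all genes were. At least 1.5-fold in both pairs, there was 1 higher member, TH, against 2.85% of all genes, and 1 lower member, SLC18A2, against 1.61%. The median siMYCN effect of the 8 was -0.24, beside 0.056 for all tested genes. Called genes split into 193 higher and 127 lower over the whole table, and into 343 and 408 when libraries were rescaled by median ratios. Under that rescaling DBH (adjusted p = 0.0263) and SLC18A2 (0.0288) passed in limma, and CYB561 passed (0.0468) when only genes with a mean of at least 20 were tested. Over all alternatives tried, the limma adjusted p ranged from 0.0263 to 0.369 for DBH, from 0.0288 to 0.439 for SLC18A2, from 0.0468 to 0.392 for CYB561 and from 0.0793 to 0.395 for TH. In bulk RNA, fewer cells expressing a gene and less of its RNA per cell cannot be told apart.

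**Figure D3:**
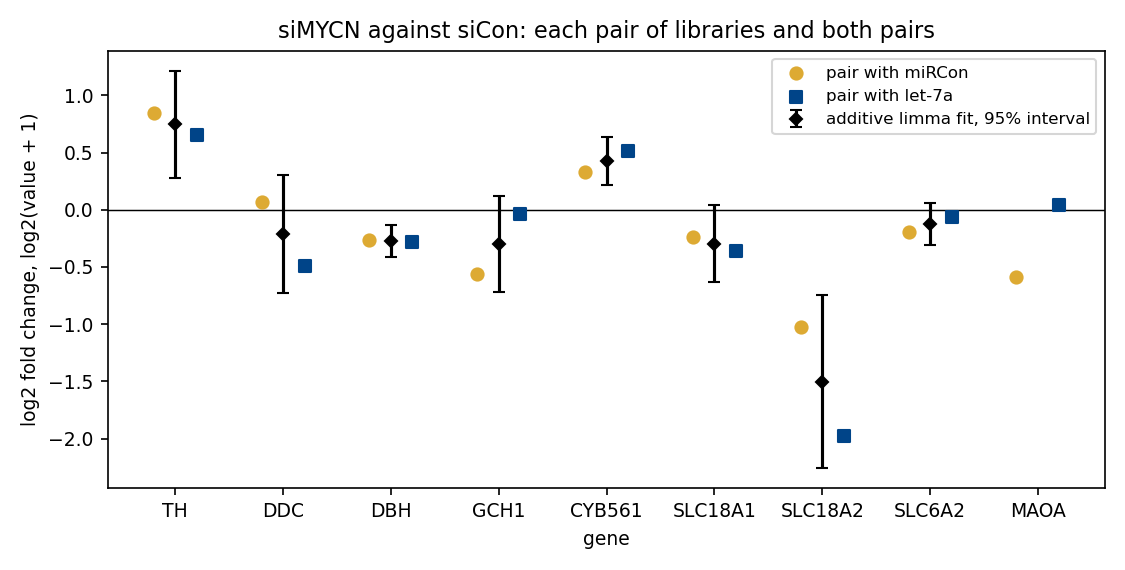
Log2 fold changes of siMYCN against siCon for the 9 genes, on the log2(value + 1) scale: circles are the pair with miRCon, squares the pair with let-7a, and diamonds the additive limma fit with its 95% interval, which MAOA lacks because it was not tested. TH and CYB561 lie above 0 in both pairs, and SLC18A2 lies lowest, at -1.02 and -1.98.

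Promoter sequence is shown for SLC18A2 and CYB561, the members with the largest siMYCN difference and the lowest adjusted p, which lay in opposite directions. The RefSeq promoter table held 5 of the 9 members (DDC, DBH, SLC18A2, MAOA and CYB561), without TH, GCH1, SLC18A1 and SLC6A2. A window was the 250 bases before an annotated start on GRCh38.p14, read 5′ to 3′ on the gene's strand, and the print stops where GENCODE places the gene's first exon, or at the end of a word that runs into it. Capitals mark the cAMP response element TGACGTCA and the E-box CACGTG that MYC proteins bind. The words TGACG, which is part of TGACGTCA, CAGCTG (another E-box) and ATTA (a homeodomain core) were searched as well, all on both strands. The stretches lie at chr10:117240864-117241073 (plus strand, SLC18A2) and chr17:63446379-63446556 (minus strand, the second of 4 CYB561 entries).
SLC18A2: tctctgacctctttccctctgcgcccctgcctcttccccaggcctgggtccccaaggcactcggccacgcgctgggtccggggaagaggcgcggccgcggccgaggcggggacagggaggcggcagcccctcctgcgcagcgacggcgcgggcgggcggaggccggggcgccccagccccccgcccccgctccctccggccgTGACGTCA
CYB561: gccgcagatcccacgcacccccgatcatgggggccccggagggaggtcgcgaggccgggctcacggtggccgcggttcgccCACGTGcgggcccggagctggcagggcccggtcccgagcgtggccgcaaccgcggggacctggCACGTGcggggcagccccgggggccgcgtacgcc

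The SLC18A2 window held 1 complete TGACGTCA, starting 48 bases before the annotated start, a word found in 1.65% of 35116 promoter windows of this length. DBH had 1 TGACG (21.2% of windows), 181 bases before its start, and 3 ATTA words (47.4% of windows). GENCODE, however, starts DBH upstream of this window and places all of it in the 5′ UTR exon, so in that annotation it is transcribed sequence and it is not printed. ATTA also occurred 4 times and 1 time in the windows of DDC, 1 time in that of MAOA and 3 times in 1 window of CYB561. CYB561 had 2 CACGTG words (6.34% of windows) in the window shown and none in its other 3. CAGCTG, found in 14.0% of windows, occurred among the members' windows in that of MAOA alone. In GENCODE the MAOA window too lies inside the gene, downstream of its start, so its matches are in transcribed sequence. The same holds for the DDC window with 1 ATTA and the CYB561 window with 3. These matches describe the letters and do not show that a factor binds there.

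With the let-7a mimic, GCH1 and SLC6A2 were the members that were higher in both let-7a libraries than in both control-mimic libraries. This comparison asks whether added let-7a alters these transcripts, and it was seen once with siCon and once with siMYCN. Limma called 0 members higher and 0 lower, as it did over all 9324 genes (0% each way). At an unadjusted p under 0.05, 3 members were higher (SLC6A2, DBH and GCH1), where 2.77% of all genes were, and 0 were lower, where 4.71% were. The mature let-7a sequence from RefSeq (GRCh38.p14) is shown because its seed, bases 2 to 8 in capitals, pairs with the 3′ UTR words that were searched.
hsa-let-7a-5p: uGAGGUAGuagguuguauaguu

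The longest 3′ UTR of each member in GENCODE release 29 was searched for the complements of the seed (CTACCTC, or TACCTCA, which pairs with bases 2 to 7 and has an A opposite the first base; together they make the 8-base word CTACCTCA). None of the 9 members (0 of 9) held either word, whereas 19.0% of the tested genes with a 3′ UTR did. Their 3′ UTRs ran from 304 bases (TH) to 2315 bases (CYB561), against a median of 1510 for tested genes. Among tested genes with 3′ UTRs of similar length, the words occurred in 2.77% for TH and in 20.1% for SLC18A2. The absence of these words says nothing about sites of other kinds.

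SLC6A2 levels were given above. They were 20.4% higher with let-7a in siCon cells and 32.4% higher in siMYCN cells, log2 fold changes of 0.27 and 0.40. Over both pairs the effect was 0.33 ± 0.073 (SE, n = 4 libraries) with a 95% interval from 0.15 to 0.52, and it did not pass (limma adjusted p = 0.663). GCH1 was 12.3% higher with let-7a in siCon cells and 65.3% higher in siMYCN cells, where the control-mimic library was the low one. Its log2 effects were 0.16 and 0.69 (0.43 ± 0.17 over both pairs, SE, n = 4 libraries, limma adjusted p = 0.663). DBH had 0.20 and 0.17, and 0.18 ± 0.057 over both pairs (SE, n = 4 libraries, limma adjusted p = 0.663), nearly the same in both siRNA states. Its mimic groups overlapped, because the siMYCN library with let-7a (390) lay below the siCon library without it (415).

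The remaining members had let-7a effects closer to their error. TH had 0.093 with siCon and -0.099 with siMYCN, with an interval over both pairs from -0.47 to 0.46. DDC had 0.40 and -0.15, with an interval from -0.39 to 0.64. CYB561 had 0.018 and 0.20, with an interval from -0.10 to 0.32, and SLC18A1 had -0.065 and -0.19, with an interval from -0.46 to 0.21. SLC18A2 had 0.080 with siCon and -0.88 with siMYCN, so that its lower level with the mimic was seen in siMYCN cells alone, at values of 4.13 and 1.80. Its interval over both pairs ran from -1.15 to 0.36. All of these intervals include 0 and leave room for differences in either direction.

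**Figure D4:**
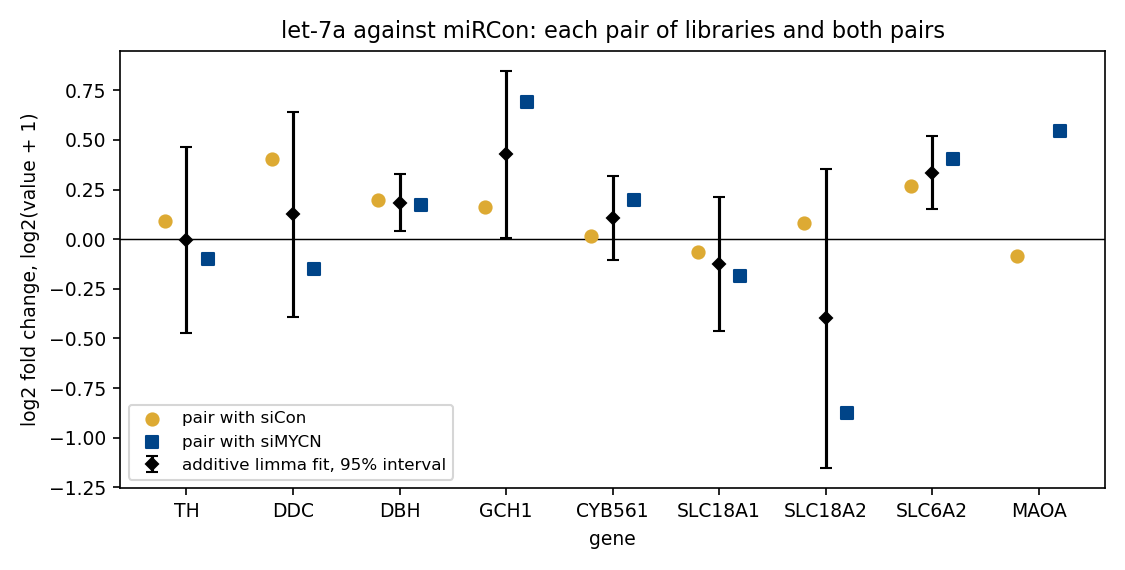
Log2 fold changes of let-7a against miRCon for the 9 genes, on the log2(value + 1) scale: circles are the pair with siCon, squares the pair with siMYCN, and diamonds the additive limma fit with its 95% interval (none for MAOA, which was not tested). SLC6A2 lies at 0.27 and 0.40 and DBH at 0.20 and 0.17, while SLC18A2 lies at 0.080 with siCon and -0.88 with siMYCN.

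Of the 8 tested members 2 were higher without overlap in the let-7a libraries (8.90% of all genes) and 0 were lower (16.2%). No member was at least 1.5-fold higher (0 of 8) or lower (0 of 8) in both pairs, against 0.204% and 0.257% of all genes. The median let-7a effect of the 8 was 0.12, beside -0.031 for all tested genes. SLC18A2 was the 1 tested member whose effects differed by at least 1.5-fold between the pairs, with a difference of -0.96, and 10.0% of all tested genes differed as much. That difference has no test, since each pair is 2 libraries.

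The library with siMYCN and let-7a can be set against the one with neither treatment, a pair that shares its libraries with the comparisons above. SLC18A2 stood at -1.90 on the log2 scale, SLC18A1 at -0.43, CYB561 at 0.53 and TH at 0.74. SLC6A2 was at 0.21 and GCH1 at 0.13. DBH (-0.089) and DDC (-0.087) were close to their starting levels, DBH having a lower value with siMYCN and a higher one with let-7a. The sum of all 9 members was 772 without either treatment, 877 with let-7a, 696 with siMYCN and 815 with both, and DBH made up between 47.8% and 54.2% of it.

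Genes that supply the pathway were followed in lists chosen by function. Calls in these lists come from the main fit. With no filter or without a trend, limma called 0 genes higher and 0 lower over the whole table with siMYCN, so none of these calls held there. Among the other tetrahydrobiopterin genes, 6 of 7 passed the filter. Limma called 1 higher with siMYCN and 0 lower, where 2.07% and 1.36% of all tested genes were. The called gene was QDPR, which regenerates the cofactor, at 78.4 and 74.0 with siCon and 113 and 106 with siMYCN. It was higher by 0.52 with either mimic (limma adjusted p = 0.0436). PTS, the second enzyme of the synthesis, was at 87.2 and 99.2 with siCon and 129 and 112 with siMYCN (adjusted p = 0.124 in limma). PCBD1, which acts with QDPR in recycling, was on the other side, at 74.0 and 75.2 with siCon and 52.7 and 56.9 with siMYCN (adjusted p = 0.0629 in limma). The genes around GCH1 thus did not move one way, and the list's median was -0.099.

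Cofactor supply covered ascorbate uptake, copper delivery to DBH and the pyridoxal phosphate that DDC needs. Of 12 genes 9 were tested, and 0 were called in either direction, with 3 higher and 0 lower at an unadjusted p under 0.05 in limma (17.0% and 9.40% of all tested genes). SLC23A2, an ascorbate transporter, was at 24.6 and 26.1 with siCon and 29.96 and 37.8 with siMYCN, and the copper importer SLC31A1 at 66.3 and 65.4 and then 84.0 and 95.05. Both had siMYCN libraries above siCon libraries. ATOX1, another gene of the list and named after its values were seen, was at 4.44 and 13.6 and then 20.8 and 21.7 (limma adjusted p = 0.0859). Of the 9 tested genes 4 were higher without overlap, where 35.6% of all tested genes were. On the other side, ATP7A, a copper pump named after its values were seen, was at 21.6 and 17.8 and then 15.4 and 15.9. It was the only tested gene of the list that was lower without overlap, where 21.1% of all tested genes were. CYB561D2, a relative of CYB561, was at 18.6 and 19.3 and then 14.7 and 18.6. PDXK, a kinase that acts in making pyridoxal phosphate, was level, between 27.0 and 29.99 in all 4 libraries.

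Among other breakdown enzymes, 5 of 10 were tested and 0 were called by limma for siMYCN, with 1 higher and 1 lower at an unadjusted p under 0.05, near the shares of all tested genes (17.0% and 9.40%). MAOB and ALDH1A1 were listed at 0 in all 4 libraries. AKR1B1, an aldose reductase that can act on the aldehydes monoamine oxidase makes, was at 85.9 and 69.1 with siCon and 115 and 118 with siMYCN (limma adjusted p = 0.0552). ALDH2, an aldehyde dehydrogenase, was at 63.1 and 72.6 and then 51.1 and 48.5 (adjusted p = 0.0842 in limma). With MAOA below 1 and MAOB at 0, both monoamine oxidases were at the bottom of the measured range.

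Of 11 other monoamine enzymes and transporters, 2 were tested. Limma called 1.36% of all tested genes lower with siMYCN, and 1 of the 2 here. This was SLC29A4, the low-affinity plasma membrane monoamine transporter, at 74.4 and 91.1 with siCon and 50.1 and 49.9 with siMYCN. It was lower by 0.71 over both pairs (adjusted p = 0.0436 in limma), while SLC6A2, the high-affinity route, did not pass. SLC18A3, the vesicular acetylcholine transporter, was at 40.6, 42.0 and 32.1 and then at 11.6 in the library with both treatments, the lowest library of SLC18A2 as well. PNMT, which makes adrenaline from noradrenaline, was below the filter, at 1.52 and 1.34 with siCon and 3.27 and 5.15 with siMYCN. SLC6A3, the dopamine transporter, was at 0.0284 or less.

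Of 13 dopamine and adrenergic receptors 2 were tested, and limma called 0 for either treatment. At an unadjusted p under 0.05, 1 was higher with siMYCN (17.0% of all tested genes) and 1 with let-7a (2.77%), and 0 were lower (9.40% and 4.71%). DRD2, the dopamine receptor that also serves as an autoreceptor, was at 19.3 and 24.3 with siCon and 25.8 and 32.4 with siMYCN, higher in each pair with siMYCN and in each with let-7a. Its adjusted p for siMYCN in limma was 0.116. ADRA2C, an alpha-2 receptor that damps release, had overlapping groups, between 24.9 and 35.3.

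The vesicle proton pump, whose gradient drives SLC18A1 and SLC18A2, had 14 of 18 subunits and accessory genes tested. Limma called 1 lower with siMYCN, where 1.36% of all tested genes were. It was ATP6V1A, the catalytic subunit, at 80.2 and 76.1 with siCon and 53.7 and 53.1 with siMYCN (limma adjusted p = 0.0474). ATP6V1B2, its partner in the head of the pump, was at 180 and 178 and then 149 and 151 (adjusted p = 0.0956 in limma). ATP6V0C, the membrane ring subunit, was on the other side, at 187 and 166 and then 219 and 200, and the list's median was 0.012. Of the 14 tested genes of the pump, 5 were higher and 3 lower without overlap between the siRNA groups, counts close to those for all tested genes (35.6% and 21.1%). CHGA and CHGB, the chromogranins that pack the same vesicles, were at 687, 847 and 489 (CHGA) and 438, 557 and 633 (CHGB), in the order siCon, siCon with let-7a and siMYCN. Both were highest in the library with both treatments, at 1157 and 2275, which was the lowest library of SLC18A2.

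Transcription factors known from sympathoadrenal cells, with factors of the CREB, EGR, FOS and NR4A families, were 16, of which 12 were tested. With siMYCN, limma called 2 higher and 1 lower, where 2.07% and 1.36% of all tested genes were. ISL1, a homeodomain factor of sympathetic neurons, was at 128 and 116 with siCon and 88.3 and 65.1 with siMYCN. It was lower by 0.68 (adjusted p = 0.0434 in limma). GATA2 was higher by 0.47 (adjusted p = 0.0487 in limma), and TFAP2B by 0.48 (adjusted p = 0.0488 in limma). PHOX2A, which activates DBH and TH, was between 566 and 644 in all 4 libraries with overlapping groups. HAND1 was at 417 and 364 with siCon and 346 and 240 with siMYCN (adjusted p = 0.0647 in limma). HAND2 was at 272 and 269 with siCon and 238 and 232 with siMYCN (adjusted p = 0.123 in limma). The list's median was -0.15, beside -0.24 for the catecholamine genes and 0.056 for all tested genes. With let-7a, limma called 0 of the 50 tested genes of these lists. At an unadjusted p under 0.05, 5 were higher (ATP6AP1, CYB561A3, DRD2, EGR1 and GATA2), beside 2.77% of all tested genes, and 5 were lower (ATP6V1C1, ATP6V1F, HAND1, ISL1 and SLC31A2), beside 4.71%. Those of them not named above were chosen after their values were seen.

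**Figure D5:**
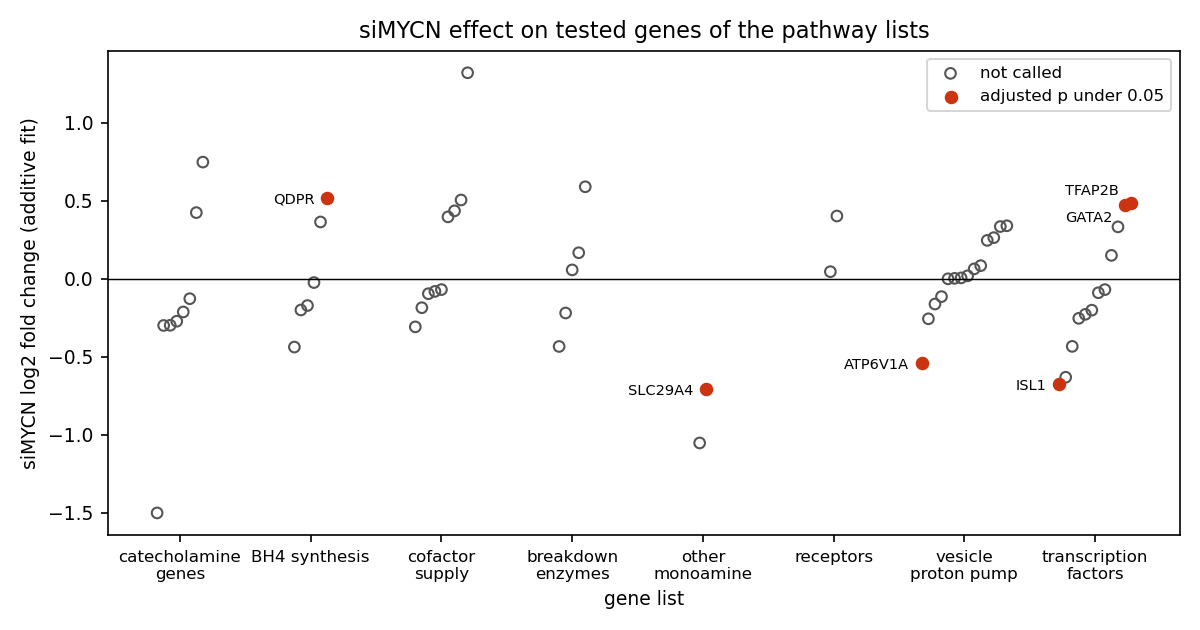
Additive limma log2 fold change of siMYCN against siCon for each tested gene of the catecholamine genes and the 7 pathway lists, ordered within a list; filled red points passed an adjusted p under 0.05 and are named. None of the catecholamine genes is filled, and SLC18A2, at -1.5, is the lowest point plotted.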

How the data were processed

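PolyA RNA from 4 libraries, 1 for each combination of siRNA and miRNA mimic, was analysed, with groups taken from the sample labels. The deposited values were taken to be natural logs, an inference, since no label states the base. With exp(x) - 1 each library sums to between 855811 and 862049. Base 2 would give totals between 143211 and 147588, which are less even. The back-transformed values are called TPM-like, and all levels and fold changes depend on this choice. The submitters' processing notes name Salmon 0.3.2, HISAT 0.1.6 and GRCh38. What each tool did, which annotation was used and how the log was taken is not given in the sources used here. Of 19837 rows, 11 for vector sequences were set apart, and 28 carried names turned into dates. Genes with a mean of at least 5 (9324) were fitted in limma 3.58.1 (R 4.3.3), with the siRNA and the mimic as additive terms on log2(value + 1), and p-values were adjusted over all of them by Benjamini-Hochberg. The fit has 1 residual degree of freedom and 4.3 prior degrees of freedom, so its p-values assume that effects add and rest largely on other genes. Intervals cover 95%. The fit was also run on simulated data. These were additive by design with noise drawn from the fit, so they cannot check the assumption that effects add. No value carries a counting error, because depth is unknown.

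Words in 3′ UTRs were compared with tested genes whose 3′ UTR was 0.8 to 1.25 times as long. The members, lists and tests were chosen with earlier results of these data known. Named genes were the 9 members, the 4 most abundant genes of each other list and any listed gene called by limma. Outside this rule, NCAM1, MAOB, ALDH1A1 and SLC6A3 were named, as were the genes said above to be named or chosen after their values were seen. Some genes of these lists are not reported here and were left out of the lists' counts and sums. PDZD8, FIGNL1, DDC-AS1 and DBH-AS1 were named for their overlap with members. Gene positions and 3′ UTRs came from GENCODE release 29, promoters and let-7a from RefSeq. Alternatives were other pseudocounts (0.1 or 5), dropping the filter, raising it to a mean of 20, median-ratio rescaling, limma without a trend or with robust variance, folds of 1.25 and 2, and each pair alone. Python 3.11.15, pandas 2.3.3 and NumPy 2.4.6 were used.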

Additional observations from a re-analysis of the deposited data

Results flagged for a closer look

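A few members had effects of opposite sign in the 2 pairs of a treatment, and in none was the difference tested, because each pair is 2 libraries. DDC was higher with siMYCN under the control mimic and lower under let-7a (0.064 and -0.49), and its let-7a effects likewise differed in sign (0.40 and -0.15), a difference of -0.56. MAOA, whose values were all below 1, had siMYCN effects of -0.59 and 0.041 and let-7a effects of -0.083 and 0.55, a difference of 0.63. TH had let-7a effects of 0.093 and -0.099, a difference of -0.19. SLC18A2 had let-7a effects of 0.080 and -0.88, a difference of -0.96.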

How the results depend on the processing

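No pairing by replicate was possible because each group is 1 library. The pairs in the text are pairs of groups that share a mimic or an siRNA, and the additive fit holds that shared treatment as a term. Members called with siMYCN went from 0 to 1 higher at a mean of at least 20 (CYB561) and from 0 to 2 lower with rescaled values (DBH and SLC18A2). Over all genes, siMYCN calls of 193 higher and 127 lower became 310 and 196 at a mean of at least 20, 343 and 408 with rescaled values, and 0 and 0 with no filter or without a trend. Members at least 1.5-fold in both siMYCN pairs (1 higher, 1 lower) became 2 higher at the smaller fold tried, 0 higher at 2-fold and with a pseudocount of 5, and 0 higher and 0 lower at a mean of at least 20, which leaves TH and SLC18A2 out. For the 8 tested members, the siMYCN effect kept its sign in the fitted alternatives that gave one (at a mean of at least 20, only DBH, GCH1, SLC6A2 and CYB561 were tested), and for let-7a TH alone changed sign, from -0.0032 to 0.028 with rescaled values. Rescaling moved the median siMYCN effect of all genes from 0.056 to -0.0030. Because depth is unknown, the counting error of the low genes MAOA, SLC18A2 and TH cannot be given.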

Other observations

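The 3′ UTRs of SLC18A2 and CYB561 held the word GTGAAAG, a word singled out by an earlier scan of 3′ UTRs against the siMYCN effects of these same data. Both sites are shown with the word in capitals, from GENCODE release 29 on GRCh38, at bases 91 to 119 of the SLC18A2 3′ UTR (transcript ENST00000298472.10) and bases 718 to 746 of that of CYB561 (transcript ENST00000584031.5).
SLC18A2: atccatccctgGTGAAAGagtaaaaccaa
CYB561: gtatgttggtgGTGAAAGcaaggttcccc

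The genes that hold it lay on opposite sides with siMYCN, SLC18A2 at -1.5 and CYB561 at 0.42 over both pairs. The word occurred in 15.7% of tested genes with a 3′ UTR, and in 16.9% and 17.9% of those with a 3′ UTR as long as that of SLC18A2 and CYB561. Its part in either value was not tested.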
